A study of Homo sapiens with 24 samples.

Results

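VCAM1 and 8 other genes known from injured kidney tubules (HAVCR1, LCN2, SPP1, PROM1, SOX9, SOX4, CLU and TIMP1) were followed through RNA-seq of 2 human kidney cell lines depleted of KDM5C, of YY1 or of the 2 together. These 9 genes were found by symbol among the 60675 genes of the count tables, through their Ensembl identifiers. VCAM1 was chosen by its rise in the ACHN double knockdown, and the other 8 were picked as known injury genes. Every ACHN value of VCAM1 is therefore given as a description, with no test. ACHN is a human renal cancer line, labelled as clear cell carcinoma, and HK2 is a human kidney line derived from proximal tubule epithelium. Each line was sequenced as a control with a non-targeting hairpin (shCtrl), with a hairpin against KDM5C (shKDM5C), with a hairpin against YY1 (shYY1), and with both genes knocked down (double knockdown), in 3 replicates each, 24 libraries in all. All cells carried pLKO.1 hairpin vectors and grew in DMEM with fetal bovine serum. The double knockdown was made by adding a GFP-marked KDM5C hairpin vector to cells already depleted of YY1, and shCtrl was the only control given for it. Cells were selected pools, the labels do not say which of the hairpins tested for each gene was sequenced, and nothing says whether replicates were separate cultures, so p-values measure the spread between these libraries, which may be technical.

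KDM5C removes methyl groups from lysine 4 of histone H3, and YY1 is a zinc finger transcription factor that can activate or repress. VCAM1 is an adhesion molecule of the immunoglobulin superfamily. It is best known on inflamed endothelium, where NF-kB signalling induces it and it binds the integrin formed by ITGA4 and ITGB1 on leukocytes, and in the kidney it also marks proximal tubule cells that fail to repair after injury. HAVCR1 (kidney injury molecule, KIM-1) is a phosphatidylserine receptor that appears on injured proximal tubule cells. LCN2 (lipocalin, NGAL) binds bacterial siderophores and is a urinary injury marker, SPP1 (osteopontin) is a secreted matrix protein that binds integrins and CD44, CLU (clusterin) is a secreted chaperone, and TIMP1 inhibits matrix metalloproteinases. SOX9 and SOX4 are transcription factors of the developing and repairing tubule, and PROM1 is a membrane glycoprotein of scattered tubular cells.

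Libraries held 15926561 to 24272298 counted read pairs. Levels are given as CPM, the usual depth-scaled count, adjusted by TMM over all 24 libraries. KDM5C was at 70.3 ± 0.595 CPM in ACHN shCtrl and 42.8 ± 1.34 and 40.4 ± 0.634 CPM in shKDM5C and double-knockdown cells (SD, n = 3), and at 192 ± 2.71, 56.9 ± 18.2 and 68.0 ± 3.15 CPM in the same groups of HK2. YY1 was at 138 ± 3.95 CPM in ACHN shCtrl and 76.4 ± 3.44 and 96.6 ± 7.02 CPM in shYY1 and double-knockdown cells, and at 209 ± 6.95, 64.1 ± 3.18 and 74.0 ± 1.55 CPM in HK2. Each hairpin thus lowered its target in both lines, and by more in HK2 (adjusted p of the 4 differences between 3.67e-12 and 0.0203, edgeR; the largest is for KDM5C in shKDM5C). In shYY1 cells KDM5C rose, to 90.2 ± 2.63 CPM in ACHN and 244 ± 14.1 CPM in HK2. Both rises over shCtrl were called (adjusted p = 1.14e-08 and 1.54e-05, edgeR). YY1 was depleted less with both hairpins than with its own alone. The gap was 0.35 log2 units in ACHN and 0.22 in HK2 (adjusted p = 5.36e-05 and 0.00645, edgeR). Double-knockdown and shYY1 cells thus differed in YY1 as well as KDM5C, and the part of this in later comparisons was not tested. The first replicate of HK2 shKDM5C stood apart. It differed from its 2 replicates by 0.977 to 0.988 log2 units (root mean square over genes), against 0.390 to 0.543 in the other 22 pairs of replicates, and its mitochondrial genes took 11.8% of read pairs, against 5.13% and 5.28% in its replicates. The HK2 shKDM5C results for the members are therefore also given without it. Of 10 renal epithelial markers, all were above 1 CPM in shCtrl cells of both lines, CDH1 in HK2 only just, at 1.33 ± 0.593 CPM. By contrast, 6 endothelial markers together came to at most 1.82 CPM in any library. Among leukocyte markers CD14 was above 1 CPM in HK2.

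The 250 bases before the RefSeq start of VCAM1 and HAVCR1 are shown first because both genes code for surface proteins and had their highest group mean in the same cells, the ACHN double knockdown. Sequences come from the RefSeq table for GRCh38.p14, which held 7 of the 9 genes and not SOX9 or CLU. Capitals mark any match, on either strand, to 5 short motifs: the YY1 core, spelled CCATNTT, the NF-kB letters GGNNTTNCC, the AP-1 letters TGANTCA, the TATA box TATAAA and the GC box GGGCGG, where N is any base.
VCAM1 (chr1:100719492-100719741, plus strand, 5′ to 3′): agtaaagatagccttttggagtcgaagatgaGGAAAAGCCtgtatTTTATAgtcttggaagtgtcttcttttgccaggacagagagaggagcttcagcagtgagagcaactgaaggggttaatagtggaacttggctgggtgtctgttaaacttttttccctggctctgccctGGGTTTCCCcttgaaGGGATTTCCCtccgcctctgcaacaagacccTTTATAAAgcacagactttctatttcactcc
HAVCR1 (chr5:157059117-157059366, minus strand, 5′ to 3′): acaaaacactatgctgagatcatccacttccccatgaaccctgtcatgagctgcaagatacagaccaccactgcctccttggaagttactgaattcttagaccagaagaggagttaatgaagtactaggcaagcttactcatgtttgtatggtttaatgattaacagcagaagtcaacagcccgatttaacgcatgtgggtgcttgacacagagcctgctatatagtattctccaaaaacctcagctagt
The VCAM1 window held the NF-kB letters at 77, 62 and 61 bases before the start on the gene's strand, the last 2 overlapping, and at 219 bases before it on the other strand. TATA letters lay 29 bases before the start, overlapping a match on the other strand, with 1 more match at 205 bases. The HAVCR1 window held none of the 5 motifs. Among the other members, SOX4 held the NF-kB letters, LCN2 and 1 of 4 PROM1 starts the AP-1 letters, TIMP1 and another PROM1 start the GC box, and SPP1 none. No member window held the YY1 core. Over all 35116 promoters of the table, 15.0% held the NF-kB letters, 6.57% AP-1, 10.7% TATA, 42.6% the GC box and 11.6% the YY1 core. A match says only that these letters are there, and no match says only that this spelling is absent. The RefSeq starts are not always the Ensembl ones, and the LCN2, SOX4 and PROM1 windows lie within the Ensembl bounds of these genes.

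VCAM1 was nearly silent in 3 of the 4 ACHN groups and well above them in the double knockdown. The 3 ACHN shCtrl libraries held 0, 2 and 4 VCAM1 read pairs, the shKDM5C libraries 11, 15 and 8, the shYY1 libraries none, and the double-knockdown libraries 617, 613 and 745. On the CPM scale the double-knockdown libraries stood at 31.6, 33.8 and 30.2, the shKDM5C libraries at 0.590, 0.837 and 0.434, and the shCtrl libraries at 0, 0.107 and 0.215. No double-knockdown library overlapped any other ACHN library. Summed over replicates and scaled for library size, the double knockdown was 298-fold above shCtrl, a ratio that rests on 6 control read pairs. It was 51.3-fold above shKDM5C and, against 3 counts over the shYY1 group, at least 586-fold above shYY1. The fitted log2 difference from shCtrl, 8.15, ranged from 7.57 to 9.07 with 1 library left out, highest without the third shCtrl replicate, which held 4 of the 6 control pairs. The shKDM5C libraries were all above the shCtrl libraries, at a ratio of 5.82, on 34 against 6 read pairs. As ACHN values chose VCAM1, these ratios and this range describe its rise and do not test it. VCAM1 (ENSG00000162692) lies on chromosome 1 from 100719742 to 100739045 in GRCh38, on the plus strand, and no other annotated gene overlaps it. In bulk RNA, fewer cells that make a transcript and less of it per cell cannot be told apart, here and for every gene that follows.

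**Figure D1:**
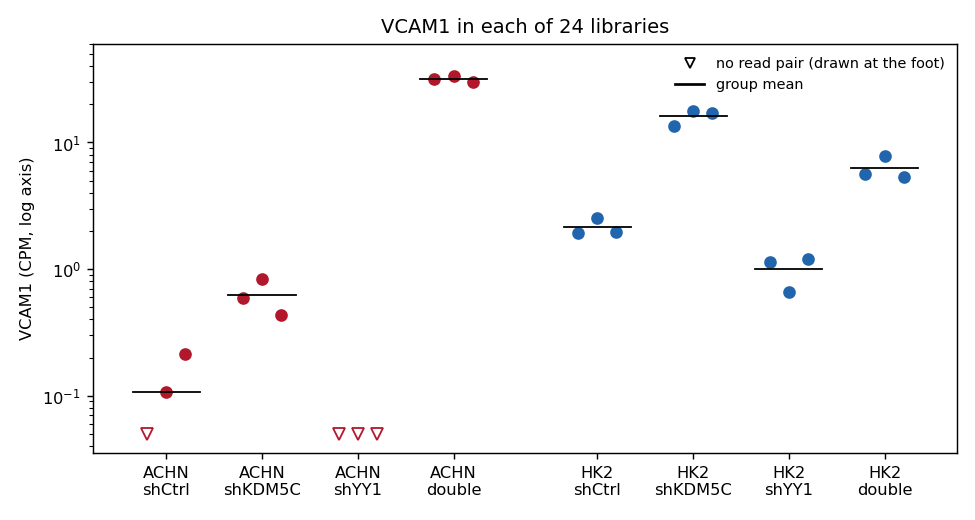
VCAM1 level in CPM (log axis) in each of the 24 libraries, by cell line and group. Points are libraries, lines are group means and open triangles are libraries with no VCAM1 read pair: the ACHN double-knockdown libraries sit between 30.2 and 33.8 CPM, above all others, and in HK2 the highest libraries are those of shKDM5C.

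In HK2 the values that chose VCAM1 were not used, so its changes were tested. VCAM1 rose with KDM5C knockdown, fell with YY1 knockdown and took an intermediate level with both. The shCtrl libraries stood at 1.93, 2.55 and 1.96 CPM, the shKDM5C libraries at 13.4, 17.6 and 17.2, the shYY1 libraries at 1.13, 0.654 and 1.21, and the double-knockdown libraries at 5.64, 7.82 and 5.33. None of the 4 groups overlapped another. In shKDM5C cells VCAM1 was 7.55-fold higher than in shCtrl (log2 fold change 2.92, standard error (SE) 0.203, adjusted p = 0.00762 by the quasi-likelihood test of edgeR, Benjamini-Hochberg over 16161 genes). Only 0.668% of genes were called higher in that comparison. The change was as large without the first shKDM5C replicate, 3.01 on the log2 scale (adjusted p = 1.79e-12, edgeR), where 11.5% of genes were called higher. With any 1 of the 3 shCtrl libraries left out and the first shKDM5C replicate kept, no member passed the threshold in this comparison, and the adjusted p of VCAM1 was 0.0935 to 0.0952. YY1 knockdown lowered VCAM1 2.14-fold (log2 fold change -1.10, SE 0.362, adjusted p = 0.0252, edgeR), a call that rested on 11 to 46 read pairs a library and was lost without the second shCtrl replicate (adjusted p = 0.104) or the second shYY1 replicate (adjusted p = 0.0860).

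The HK2 double knockdown stood 2.93-fold above shCtrl (log2 fold change 1.55, SE 0.227, adjusted p = 1.02e-06) and 6.28-fold above shYY1 (log2 fold change 2.65, adjusted p = 2.93e-08, edgeR). It stood 2.58-fold below shKDM5C (log2 fold change -1.37, SE 0.212, adjusted p = 0.00855), and 2.76-fold below it without the first shKDM5C replicate (adjusted p = 6.16e-08, edgeR). With all shKDM5C libraries kept, this call was lost without the first or the third double-knockdown replicate (adjusted p = 0.0675 and 0.0657). The double knockdown was not detectably apart from the 2 single effects added up, with an interaction of -0.27 on the log2 scale (SE 0.3495, adjusted p = 0.676), or -0.36 without the first shKDM5C replicate (adjusted p = 0.483, edgeR). In ACHN, by description, the double knockdown held the highest VCAM1 level of all groups, whereas in HK2 shKDM5C alone did. Ordered by mean level, the 8 groups ran from the ACHN double knockdown (31.9 ± 1.79 CPM, SD, n = 3) through HK2 shKDM5C (16.1 ± 2.32), HK2 double knockdown (6.27 ± 1.35), HK2 shCtrl (2.15 ± 0.352), HK2 shYY1 (0.998 ± 0.301), ACHN shKDM5C (0.620 ± 0.203) and ACHN shCtrl (0.107 ± 0.107) to ACHN shYY1, where no read pair was counted. Neighbours overlapped only between HK2 shYY1 and ACHN shKDM5C and between ACHN shCtrl and ACHN shYY1. In length-scaled units even the highest level, 5.27 ± 0.296 RPKM, was far below those of HAVCR1 (151 ± 13.0 RPKM) and SPP1 (291 ± 8.02 RPKM) in the same cells.

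The 5 genes whose log2 CPM followed VCAM1 most closely over the 24 libraries, among 11440 genes with a mean of at least 10 CPM in some group, were SMCR8 and YBX3 (Pearson's r = 0.937 each), LRRN4 (0.934), KIAA0319L (0.933) and EVC (0.929). These libraries share 8 groups and 2 lines and include the ACHN values that chose VCAM1, so the coefficients describe a pattern over groups and test nothing. The likeness did not hold in every group. In HK2 shKDM5C the mean of EVC was below that of shCtrl, at 95.6 against 97.3 CPM. The means of SMCR8, YBX3, LRRN4 and KIAA0319L were above those of shCtrl there. YBX3, a cold shock domain protein that binds RNA and DNA, was at 209 ± 6.02 CPM in ACHN shCtrl and 591 ± 13.6 CPM in the ACHN double knockdown, and at 342 ± 11.3 CPM in HK2 shCtrl and 411 ± 22.3 CPM in HK2 shKDM5C (SD, n = 3). LRRN4, a leucine-rich repeat membrane protein, went from 58.0 ± 0.908 to 221 ± 11.1 CPM in the ACHN double knockdown, while its highest HK2 group was the double knockdown, at 172 ± 10.6 CPM.

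HAVCR1, on chromosome 5 from 157029413 to 157059119 (minus strand, GRCh38), moved in opposite directions in the double knockdowns of the 2 lines. In ACHN the shCtrl libraries stood at 242, 222 and 223 CPM, the shKDM5C libraries at 209, 225 and 217, the shYY1 libraries at 199, 203 and 207 and the double-knockdown libraries at 311, 356 and 305. The double-knockdown libraries were above every other ACHN library, 1.42-fold over shCtrl (log2 fold change 0.50, SE 0.0565, adjusted p = 3.17e-07, edgeR). YY1 knockdown alone lowered HAVCR1 by 0.20 on the log2 scale (adjusted p = 8.01e-06), with no overlap between the groups. A fall of 0.09 in shKDM5C passed the test (adjusted p = 0.0325) although the groups overlapped, and it no longer passed without the first shCtrl replicate (adjusted p = 0.299), the first shKDM5C replicate (0.208) or the third (0.0639, edgeR).

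In HK2 the shCtrl libraries held HAVCR1 at 208, 218 and 208 CPM, the shYY1 libraries at 190.5, 181 and 162 and the double-knockdown libraries at 172, 159.9 and 168, so that both knockdown groups lay below shCtrl. The falls were 0.25 (adjusted p = 0.00153) and 0.34 on the log2 scale (adjusted p = 2.81e-07, edgeR). HK2 shKDM5C went the other way, at 331, 252 and 235 CPM, all above shCtrl. The first and highest of these is the library that stands apart. With it the difference was not called (log2 fold change 0.39, adjusted p = 0.322), and without it a smaller rise was (log2 fold change 0.20, adjusted p = 0.00200, edgeR). In the double knockdown HAVCR1 lay below shKDM5C, by 0.73 on the log2 scale with all libraries (adjusted p = 0.0316) and by 0.54 without the first shKDM5C replicate (adjusted p = 5.93e-09). With the first replicate kept, leaving out the second shKDM5C replicate or any double-knockdown replicate ended this call (adjusted p from 0.0553 to 0.149).

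PROM1 could not be tested in any comparison. The ACHN libraries held 1 read pair of it in all, in shKDM5C. The HK2 sums were 3 for shCtrl, 9 for shKDM5C, 1 for shYY1 and 8 for the double knockdown, nearly all of the larger sums from the third replicate (8 and 7 read pairs), so no group stood apart. An exon of PROM1 overlaps one of FGFBP2 on the same strand, where read pairs could not be told apart.

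LCN2, on chromosome 9 from 128149071 to 128153455 (plus strand), was the member that rose most in the HK2 double knockdown, and it stayed low in ACHN. HK2 shCtrl libraries stood at 22.05, 23.5 and 22.2 CPM, shKDM5C at 70.7, 125 and 119, shYY1 at 33.3, 27.6 and 31.7 and the double knockdown at 197, 223 and 193. The 4 groups did not overlap and ran in the order shCtrl, shYY1, shKDM5C, double knockdown. LCN2 was 9.12-fold higher in the double knockdown than in shCtrl (log2 fold change 3.19, SE 0.0649, adjusted p = 3.39e-26), 4.68-fold higher in shKDM5C (log2 fold change 2.23, adjusted p = 0.00762) and 1.37-fold higher in shYY1 (log2 fold change 0.45, adjusted p = 7.19e-04, edgeR). Without the first shKDM5C replicate, the lowest of its group, the shKDM5C rise was 5.39-fold (adjusted p = 1.74e-18). The double knockdown was also above shKDM5C, 1.95-fold with all libraries (adjusted p = 0.0280) and 1.69-fold without that replicate (adjusted p = 4.64e-10, edgeR). With it kept, leaving out the third shKDM5C replicate or any double-knockdown replicate ended that call (adjusted p from 0.0563 to 0.130).

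The 12 ACHN libraries held 16 to 43 LCN2 read pairs each, between 0.820 and 2.39 CPM. No ACHN knockdown differed from shCtrl at the threshold, with log2 fold changes of -0.61 in shKDM5C (adjusted p = 0.0584), 0.22 in shYY1 (adjusted p = 0.498) and -0.62 in the double knockdown (adjusted p = 0.0773, edgeR), although scaled by total counts the shKDM5C difference passed (adjusted p = 0.0430). LCN2 was lower in the double knockdown than in shYY1 (log2 fold change -0.85, adjusted p = 0.0168), a call lost without the third shYY1 replicate (adjusted p = 0.0905) or the first double-knockdown replicate (adjusted p = 0.0572).

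SPP1, on chromosome 4 from 87975650 to 87983426 (plus strand), was the member with the highest length-scaled level in every group and rose in the double knockdown of both lines. In ACHN it stood at 491, 517 and 490.1 CPM in shCtrl, 408, 436 and 415 in shKDM5C, 394, 402 and 410.4 in shYY1, against 669.5, 696 and 660.5 in the double knockdown. Both single knockdowns lay below shCtrl and the double knockdown above it. The log2 fold changes were -0.26 (adjusted p = 7.40e-08), -0.34 (adjusted p = 3.47e-12) and 0.44 (adjusted p = 3.84e-08, edgeR). In HK2 the shCtrl libraries held 1385, 1385 and 1417 CPM, shYY1 1749.6, 1758 and 1817, and the double knockdown 2753, 2774 and 2840.4, with no overlap. SPP1 thus rose 1.27-fold in shYY1 (adjusted p = 3.08e-07) and 2.01-fold in the double knockdown (log2 fold change 1.01, SE 0.0328, adjusted p = 2.34e-21, edgeR). HK2 shKDM5C libraries stood at 1277, 2205 and 2179.7 CPM, the first below and the others above shCtrl. This gave no call with all 3 (log2 fold change 0.45, adjusted p = 0.332) and a 1.57-fold rise without the first (adjusted p = 2.95e-14, edgeR).

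CLU, on chromosome 8 from 27596917 to 27615031 (minus strand), fell with one knockdown in each line, KDM5C in ACHN and YY1 in HK2, and rose in both double knockdowns. In ACHN it was at 49.4, 54.6 and 54.8 CPM in shCtrl, 39.8, 42.7 and 38.0 in shKDM5C, 51.5, 51.7 and 51.4 in shYY1, against 71.1, 71.1 and 72.6 in the double knockdown. The fall in shKDM5C was 0.41 (adjusted p = 8.53e-07) and the rise in the double knockdown 0.44 on the log2 scale (adjusted p = 1.63e-06, edgeR), whereas shYY1 overlapped shCtrl. In HK2 the shYY1 libraries, at 68.0, 58.3 and 52.5 CPM, all lay below the shCtrl libraries at 116, 115 and 115, a 1.94-fold fall (log2 fold change -0.95, SE 0.0710, adjusted p = 1.09e-09). The double knockdown was back above shCtrl, at 128, 125 and 124 CPM, 0.13 higher on the log2 scale (adjusted p = 0.0245, edgeR), a call lost without the first or the third shCtrl or the first or second double-knockdown replicate (adjusted p up to 0.0742). The first HK2 shKDM5C replicate held CLU at 35.0 CPM and the others at 114 and 120.5, near shCtrl. Neither fit called a change, with log2 fold changes of -0.36 with all 3 libraries (adjusted p = 0.645) and 0.0155 without the first (adjusted p = 0.876, edgeR). An exon of CLU overlaps one of ENSG00000273705 on the same strand.

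TIMP1, on chromosome X from 47582313 to 47586789 (plus strand), rose in all 3 ACHN knockdowns. ACHN libraries stood at 40.1, 35.3 and 38.9 CPM in shCtrl, 48.2, 51.8 and 49.7 in shKDM5C, 44.7, 45.7 and 43.4 in shYY1, against 62.4, 54.3 and 55.5 in the double knockdown. No group overlapped another, and the log2 fold changes over shCtrl were 0.37, 0.20 and 0.59 (adjusted p = 4.15e-06, 0.00317 and 4.93e-07, edgeR). In HK2 only the double knockdown was called, from 110.1, 114 and 119.7 CPM in shCtrl to 138, 138 and 139.8 CPM (log2 fold change 0.28, adjusted p = 1.59e-05), while shYY1 had 105, 102 and 113 CPM (adjusted p = 0.199, edgeR). HK2 shKDM5C libraries were at 79.6, 128 and 127 CPM, a difference of -0.03 with all 3 (adjusted p = 0.939) and of 0.15 without the first (adjusted p = 0.0448).

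SOX9, on chromosome 17 from 72121020 to 72126420 (plus strand), rose in the ACHN double knockdown and fell in that of HK2. Its ACHN level was low, at 0.832, 1.24 and 1.72 CPM in shCtrl, 1.82, 1.84 and 1.46 in shKDM5C and 1.43, 1.503 and 1.84 in shYY1, groups that overlapped each other. In the ACHN double knockdown it was at 5.07, 4.52 and 6.01 CPM (82 to 148 read pairs), 4.15-fold above shCtrl (log2 fold change 2.05, SE 0.236, adjusted p = 4.08e-07, edgeR). HK2 libraries held 26.8, 25.7 and 31.8 CPM in shCtrl, 17.0, 16.9 and 15.7 in shYY1, against 10.5, 13.8 and 11.5 in the double knockdown. Each of these groups lay below the one before, a 1.70-fold fall in shYY1 (adjusted p = 5.67e-06) and a 2.34-fold fall in the double knockdown (log2 fold change -1.23, adjusted p = 1.54e-10, edgeR). HK2 shKDM5C, at 13.0, 17.3 and 20.9 CPM, was also below shCtrl in every library, a log2 fold change of -0.71 that edgeR did not call with all 3 (adjusted p = 0.168) and of -0.56 that it called without the first (adjusted p = 5.65e-04). With all 3 kept, SOX9 was called by DESeq2 (adjusted p = 0.0365) and by the edgeR fit of all 12 HK2 libraries (adjusted p = 0.0215). Even so, the highest ACHN group remained below the lowest HK2 group.

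SOX4, on chromosome 6 from 21592769 to 21598619 (plus strand), fell in both single knockdowns of ACHN and rose in the double. The ACHN libraries stood at 114, 112 and 109.6 CPM in shCtrl, 59.8, 60.9 and 58.6 in shKDM5C, 83.9, 82.3 and 83.4 in shYY1, against 129.6, 129.9 and 140.1 in the double knockdown, with no overlap between groups. SOX4 was 1.90-fold lower in shKDM5C (log2 fold change -0.92, SE 0.0412, adjusted p = 7.54e-16), 1.37-fold lower in shYY1 (adjusted p = 2.26e-12) and 1.19-fold higher in the double knockdown (adjusted p = 1.56e-04, edgeR). The HK2 changes were smaller. Its shCtrl libraries held 176, 174 and 180.0 CPM and the double knockdown 151, 152 and 166, a fall of 0.17 on the log2 scale (adjusted p = 0.00452), whereas shYY1, at 198, 176 and 191 CPM, overlapped shCtrl (adjusted p = 0.204). HK2 shKDM5C libraries were at 127, 167 and 172 CPM, with no call with all 3 (log2 fold change -0.17, adjusted p = 0.518) or without the first (-0.06, adjusted p = 0.358, edgeR).

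**Figure D2:**
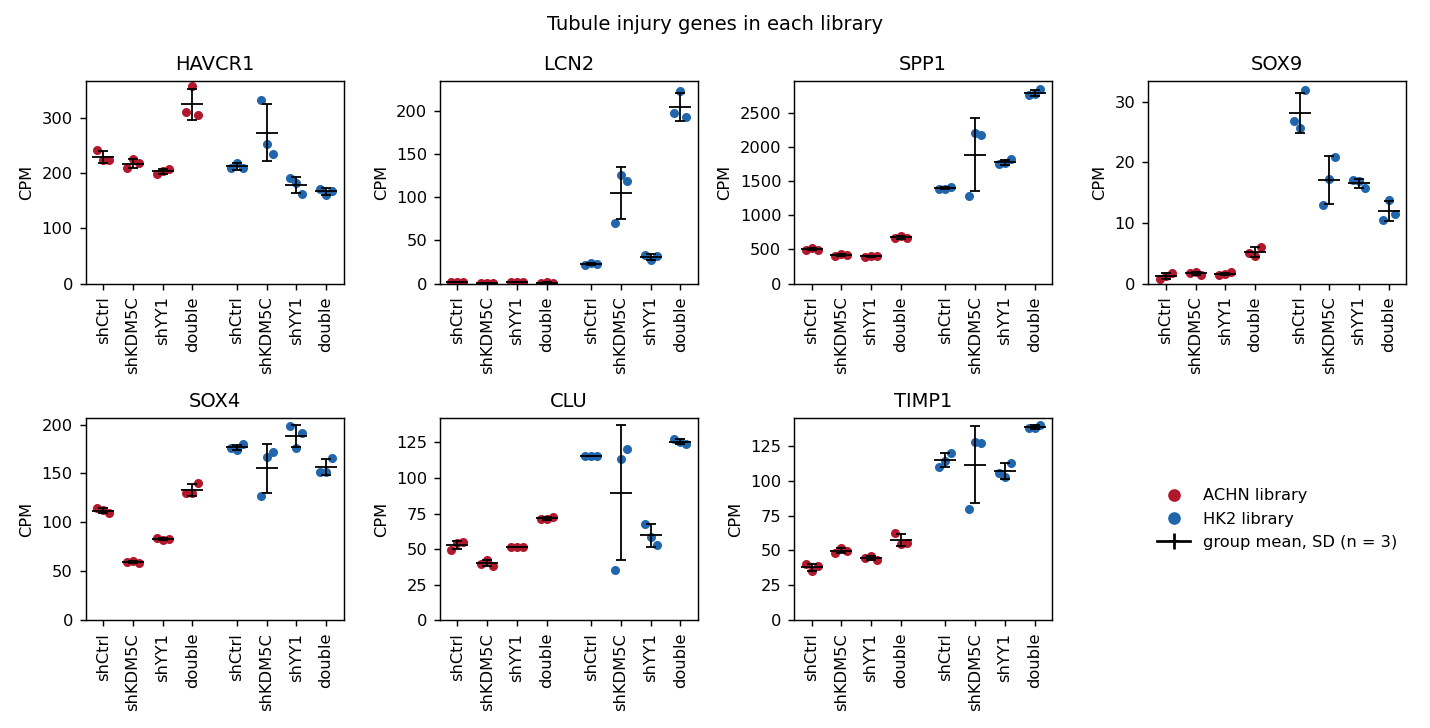
CPM of the 7 other expressed members in each library (points), with the group mean and SD (n = 3, bars), by group, ACHN in red and HK2 in blue; each panel starts at 0. In ACHN the double knockdown is the highest group for 6 of the 7 genes, LCN2 excepted. The wide bars of HK2 shKDM5C come from its first replicate, for example 35.0 CPM of CLU against 114 and 120.5, except for SOX9, whose 3 libraries are evenly spread (13.0, 17.3 and 20.9 CPM).

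Of the 8 members other than VCAM1, 7 passed the filter on low counts in ACHN. Of these 7, 6 were higher and none lower in the double knockdown than in shCtrl, with LCN2 not called. Over all 16454 genes tested, 30.7% were called higher and 32% lower. In ACHN shKDM5C 1 was higher (TIMP1) and 4 lower (HAVCR1, SPP1, SOX4 and CLU), against 28.9% of genes higher and 27.7% lower. In ACHN shYY1 1 was higher (TIMP1) and 3 lower (HAVCR1, SPP1 and SOX4), against 24.2% and 24.5%. Against shKDM5C the double knockdown was higher for the same 6, a comparison that called 62.5% of genes in either direction, and so it was against shYY1, which called 64.6% and where LCN2 was lower. The TIMP1 call against shKDM5C was lost without the first double-knockdown replicate (adjusted p = 0.0657, edgeR). The median member difference was 0.44 on the log2 scale in the double knockdown, -0.26 in shKDM5C and -0.06 in shYY1, and the median over all genes was -0.01 in each. These comparisons share their control libraries, and the members were picked as injury genes with results of these data known.

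In HK2, 8 of the 9 members passed the filter, VCAM1 included. All 8 were called in the double knockdown, 5 higher (VCAM1, LCN2, SPP1, CLU and TIMP1) and 3 lower (HAVCR1, SOX9 and SOX4), where 25.5% of genes were higher and 24.3% lower. In shYY1 2 were higher (LCN2 and SPP1) and 4 lower (VCAM1, HAVCR1, SOX9 and CLU), against 14.3% and 14.7%. When all 12 HK2 libraries were fitted together, the one that stands apart included, HAVCR1, SOX4, CLU and TIMP1 were no longer called in the double knockdown, and HAVCR1, LCN2, SPP1 and CLU no longer in shYY1. In shKDM5C edgeR called VCAM1 and LCN2 higher and no member lower, against 0.668% and 0.656% of genes. At an unadjusted p under 0.05 it had 4, with HAVCR1 and SOX9, and DESeq2 called 3, with SOX9 lower. Without the first shKDM5C replicate 5 were higher (VCAM1, LCN2, SPP1, HAVCR1 and TIMP1) and 1 lower (SOX9), against 11.5% and 10.9%. Between the double knockdown and shKDM5C 1 was higher (LCN2) and 2 lower (VCAM1 and HAVCR1), with 11.9% of genes called in either direction. Without that replicate 3 were higher and 3 lower, with 43.3% called. Between the double knockdown and shYY1 5 were higher and 2 lower, with 47.7% called.

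**Figure D3:**
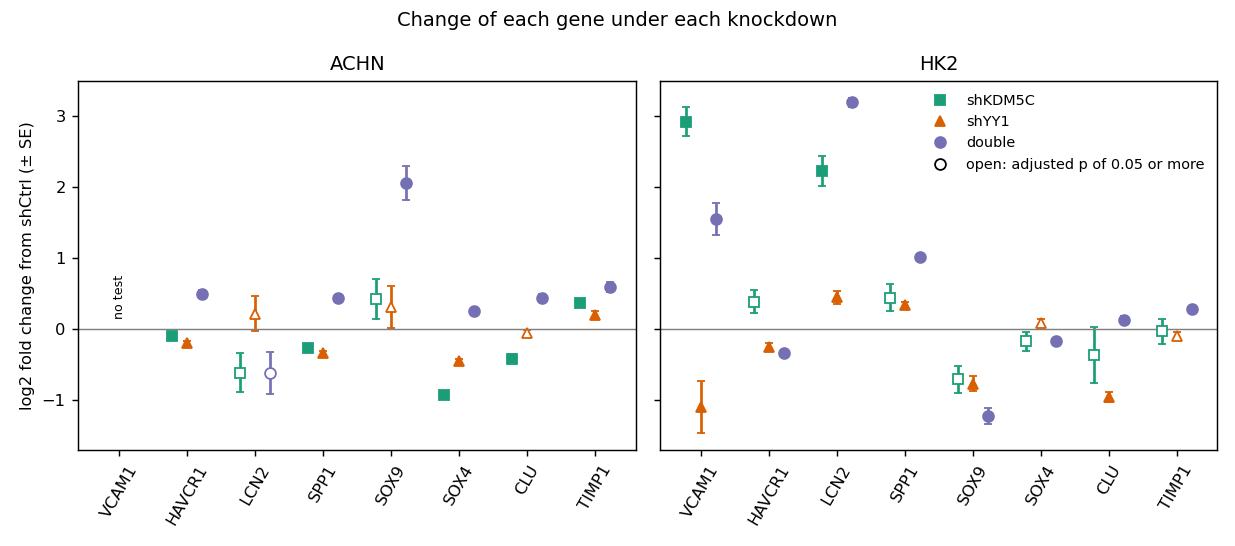
Log2 fold change from shCtrl (points, bars of 1 SE, edgeR) for each gene under shKDM5C, shYY1 and the double knockdown, ACHN at left and HK2 at right; filled points have an adjusted p under 0.05, and VCAM1 has no test in ACHN. SOX9 sits at 2.05 in the ACHN double knockdown and at -1.23 in that of HK2, and LCN2 at -0.62 and 3.19.

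The test of the interaction asked whether the log2 change in the double knockdown differed from the 2 single changes added up. In ACHN 5 of 7 members exceeded that sum and none fell short of it, in a comparison that called 55.6% of genes. SOX4 had the largest excess, 1.60 (SE 0.0611, adjusted p = 4.06e-17, edgeR), since the single effects summed to -1.38 and the double knockdown was at 0.25. The excess was 1.29 for SOX9 (adjusted p = 0.00281), 1.01 for SPP1 (adjusted p = 1.08e-14), 0.89 for CLU (adjusted p = 2.93e-10) and 0.77 for HAVCR1 (adjusted p = 7.51e-10, edgeR). TIMP1 lay on the sum within error, at -0.01 (SE 0.0880, adjusted p = 0.940), and LCN2 at -0.25 (SE 0.384, adjusted p = 0.610). By description, VCAM1 had 0 shYY1 read pairs, so no sum of its single effects can be formed. In HK2 no member departed from the sum at an adjusted p under 0.05 by edgeR, where 9.61% of genes did. At an unadjusted p under 0.05 there were 2, HAVCR1 and CLU, and DESeq2 called 1, CLU. With all libraries the difference was 1.44 for CLU (SE 0.433, adjusted p = 0.0562) and -0.47 for HAVCR1 (SE 0.178, adjusted p = 0.119, edgeR). Without the first shKDM5C replicate 4 of 8 were called, with 28.7% of genes: CLU (1.08, adjusted p = 5.60e-10), LCN2 (0.32, adjusted p = 0.0221) and TIMP1 (0.24, adjusted p = 0.0160) above the sum and HAVCR1 (-0.28, adjusted p = 0.00820, edgeR) below it.

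**Figure D4:**
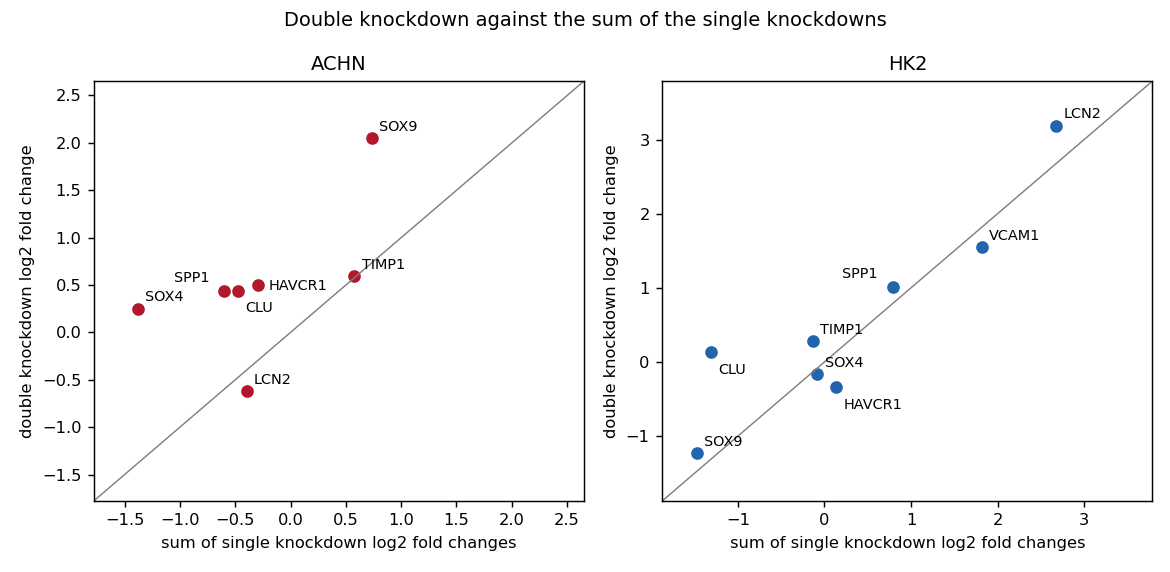
Log2 fold change in the double knockdown (vertical axis) against the sum of the 2 single-knockdown log2 fold changes (horizontal axis), 1 point a gene, for ACHN without VCAM1 and for HK2 with all libraries; the grey line marks equality. In ACHN 5 genes lie above the line, SOX4 farthest at -1.38 and 0.25, and in HK2 CLU lies farthest from it, at -1.31 and 0.13.

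Whether a knockdown had the same effect in the 2 lines was tested by the difference of the effects. For the double knockdown all 7 testable members differed, in a comparison that called 46% of genes. LCN2 rose by 3.79 log2 units more in HK2 (SE 0.244, adjusted p = 2.20e-13) and SPP1 by 0.55 more (adjusted p = 5.77e-10). SOX9 was 3.30 units lower in HK2 relative to ACHN (adjusted p = 8.19e-12), HAVCR1 0.86 (adjusted p = 1.18e-10), SOX4 0.44 (adjusted p = 4.65e-06), CLU 0.33 and TIMP1 0.33 units lower (adjusted p = 3.52e-04 and 0.00160, edgeR). For shYY1 5 of 7 differed, with 33.1% of genes called: SPP1 (0.67) and SOX4 (0.53) were higher in HK2 relative to ACHN, and SOX9 (-1.09), CLU (-0.91) and TIMP1 (-0.32) lower. For shKDM5C 2 differed, LCN2 (2.83, adjusted p = 2.13e-04) and SOX4 (0.74, adjusted p = 0.00508), with 11.9% of genes called. Without the first HK2 shKDM5C replicate all 7 did, with 33.9% called, at 3.04 for LCN2 (adjusted p = 4.40e-12) and 0.85 for SOX4 (adjusted p = 4.36e-13, edgeR). The residual levels of the targets also differed between the lines, as given above, and their part in these differences was not tested. In shCtrl cells 6 of 7 members were higher in HK2, from 1.57-fold for SOX4 to 13.3-fold for LCN2 and 22.1-fold for SOX9, and HAVCR1 was 1.09-fold lower (adjusted p = 0.00536), which without the first ACHN shCtrl replicate had an adjusted p of 0.0522. That comparison called 76.6% of genes, and line and culture cannot be told apart in it.

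Genes known as NF-kB targets were listed because VCAM1 is one of the textbook set. Of 18 found, 16 were tested in the ACHN double knockdown, and all 16 were higher than in shCtrl, with a median log2 fold change of 1.49 against -0.01 over all genes tested, of which 30.7% were called higher. BIRC3, an inhibitor of apoptosis, went from 16.6 ± 2.36 to 143 ± 5.37 CPM and CXCL1, a neutrophil chemokine, from 29.1 ± 3.03 to 195 ± 10.8 CPM (SD, n = 3). TNFAIP2 and NFKB2 rose by 1.16 and 0.53 on the log2 scale. In ACHN shKDM5C 12 of 16 were higher and 1 lower, where 28.9% of all genes were higher and 27.7% lower. In ACHN shYY1 15 of 18 were higher and 1 lower, against 24.2% and 24.5% of all genes. In HK2 14 of 17 were higher and 1 lower in the double knockdown, against 25.5% and 24.3% of all genes, with a median of 0.77, among them ICAM1, another immunoglobulin adhesion molecule, from 101 ± 3.91 to 277 ± 9.78 CPM, and CXCL8 from 86.6 ± 10.3 to 207 ± 9.60 CPM. In HK2 shYY1 1 was higher and 6 lower of 17, against 14.3% and 14.7% of all genes. In HK2 shKDM5C 2 of 17 were higher with all libraries, against 0.668% of all genes, and 10 were higher and 5 lower without the first replicate, against 11.5% and 10.9%.

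Other adhesion molecules and integrins, and the relatives and partners of the members, are read against the shares of all genes called in the double knockdowns, 30.7% higher and 32% lower in ACHN and 25.5% higher and 24.3% lower in HK2. Of 17 adhesion genes listed, 4 were higher and 5 lower of 11 tested in the ACHN double knockdown, and 5 higher and 1 lower of 9 in that of HK2. ITGB1, the integrin beta chain of the VCAM1 receptor, rose in both, from 1057 ± 16.05 to 1524 ± 67.2 CPM in ACHN and from 735 ± 30.6 to 1082 ± 14.1 CPM in HK2. ITGA4, its alpha chain, named after its values were seen, fell in ACHN from 86.7 to 49.8 CPM (log2 fold change -0.80, adjusted p = 7.88e-10) and was at 2.29 and 2.93 CPM in HK2 (adjusted p = 0.273, edgeR). ALCAM fell in ACHN by 1.41 and rose in HK2 by 0.28 on the log2 scale. Relatives and partners of the members showed 6 higher and 2 lower of 10 in ACHN and 5 higher and 2 lower of 9 in HK2. CD44, a receptor for SPP1, rose from 257 ± 6.15 to 672 ± 23.7 CPM in ACHN and from 211 ± 5.43 to 539 ± 28.0 CPM in HK2, and TIMP2, another metalloproteinase inhibitor, rose by 0.93 and 0.28 on the log2 scale.

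Genes of tubule cells that fail to repair went both ways, 12 higher and 13 lower of 27 in the ACHN double knockdown (median 0.04) and 9 higher and 18 lower of 29 in that of HK2 (median -0.35). All genes tested had 30.7% higher and 32% lower in the first and 25.5% and 24.3% in the second. C3, the complement component, rose in HK2 from 192 ± 7.46 to 1330.2 ± 60.8 CPM, and CD24, a surface glycoprotein, fell in ACHN from 2198 ± 31.2 to 489 ± 25.6 CPM. KRT8, an epithelial keratin, fell in HK2 from 1828 ± 53.6 to 805 ± 45.7 CPM. In ACHN shKDM5C 14 were higher and 8 lower of 27 (28.9% and 27.7% of all genes), and in shYY1 18 higher and 6 lower (24.2% and 24.5%). In HK2 shYY1 9 were higher and 10 lower of 29 (14.3% and 14.7%). In HK2 shKDM5C 4 were higher and 3 lower (0.668% and 0.656%), or 9 and 14 without the first replicate (11.5% and 10.9%). Against the same shares for the double knockdowns, proximal tubule transport and enzyme genes showed 2 higher and 4 lower of 12 in the ACHN double knockdown and 5 higher and 2 lower of 10 in that of HK2. DPP4, a brush border peptidase, fell in ACHN from 97.4 ± 2.05 to 29.0 ± 2.02 CPM and rose in HK2 from 151 ± 2.63 to 291 ± 23.99 CPM. Others moved the same way in both lines. The log2 fold changes in ACHN and HK2 were 0.81 and 0.13 for GGT1 and -0.86 and -0.69 for SLC4A4. SLC3A1 rose by 0.77 in ACHN and MIOX by 0.52 in HK2.

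Markers of other cell types gave these values beside the rise of VCAM1. The 6 endothelial markers summed to 0.110 to 0.154 CPM in the ACHN double-knockdown libraries and 0.537 to 1.18 CPM in ACHN shCtrl, with CDH5, KDR and EMCN at 0 in both groups. In HK2 shKDM5C they summed to 0.890 to 1.58 CPM, with the same 3 genes at 0, and in HK2 shCtrl to 0.611 to 1.03 CPM. Among leukocyte markers CD3E was at 0 in the ACHN double knockdown, and PTPRC and CD3E were at 0 in HK2 shKDM5C. Of 6 fibroblast and mural markers, 4 were above 1 CPM in ACHN (PDGFRB, ACTA2, COL1A1 and THY1) and LUM was at 0. Together the 6 summed to 925 to 1018 CPM in ACHN shCtrl and 290.5 to 318 CPM in the ACHN double knockdown. In HK2 their sum went the other way, from 44.8 to 45.8 CPM in shCtrl libraries to 94.8 to 104.5 CPM in double-knockdown libraries. Of the 10 epithelial markers, 8 fell and 2 rose in the ACHN double knockdown (median log2 fold change -1.19), where 32% of all genes fell and 30.7% rose, and 6 fell and 3 rose in that of HK2 (median -0.65), against 24.3% and 25.5%. CDH1, the epithelial cadherin, named after its values were seen, went from 47.7 ± 2.36 to 5.26 ± 1.22 CPM in ACHN. In HK2 CDH1 was low throughout, at 1.33 ± 0.593 CPM in shCtrl and not above 1 CPM in the double knockdown. The part of these changes in those of the injury genes was not tested.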

How the data were processed

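Total RNA of 24 libraries (2 lines, 4 groups, 3 replicates) was sequenced. Per the labels, the authors aligned reads with HISAT2 (v2.0.5) to hg38 and counted them with featureCounts (v1.5.0-p3); the file headers give v2.0.1, read pairs, no strand option and Ensembl release 84. The deposited values are raw counts per gene, and reads of overlapping genes on either strand cannot be separated. Each pair of groups was compared with edgeR's quasi-likelihood test (edgeR v4.0.16, R v4.3.3) after TMM scaling and filterByExpr, and p-values were adjusted by Benjamini-Hochberg over every gene that passed the filter, with a threshold of 0.05. Interactions and differences between lines were fitted on 12 libraries. RPKM is CPM divided by the deposited exonic length in kilobases, and is used only to compare levels between genes.

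Totals of 15926561 to 24272298 pairs set the precision of low counts. The members and gene lists were chosen with earlier results of these data known. Genes named besides the members were the targets, up to 4 genes of each list and line with the highest mean CPM among those called in the double knockdown, and the 5 genes most like VCAM1. Alternatives were DESeq2 (v1.42.0), RLE and total-count scaling, no filter, a minimum of 10 counts, all 12 libraries of a line, a replicate block and leaving out each library; the fit of every HK2 shKDM5C comparison without its first replicate was given its own values after the data were seen. Same-numbered replicates did not deviate together (r from -0.369 to 0.179 over 36 correlations), so the numbers were not taken as pairs. Scripts were tested on simulated data. Hairpin sequences were not used here. The summed level of the leukocyte markers is not reported here.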

Additional observations from a re-analysis of the deposited data

Results flagged for a closer look

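The same knockdown had different effects in HK2 and ACHN for 14 combinations of gene and knockdown, by the adjusted test of the difference on 12 libraries (edgeR). Over all genes the same test called 11.9% for KDM5C knockdown, 33.1% for YY1 knockdown and 46% for the double knockdown. Values are the HK2 effect minus the ACHN effect on the log2 scale. With KDM5C knockdown they were 2.83 for LCN2 and 0.74 for SOX4. With YY1 knockdown they were 0.67 for SPP1, 0.53 for SOX4, -1.09 for SOX9, -0.91 for CLU and -0.32 for TIMP1. With the double knockdown they were 3.79 for LCN2, 0.55 for SPP1, -0.86 for HAVCR1, -3.30 for SOX9, -0.44 for SOX4, -0.33 for CLU and -0.33 for TIMP1. Without the first HK2 shKDM5C replicate, all 7 members tested differed for KDM5C knockdown, where 33.9% of all genes were called. VCAM1 was left out of these tests, since its ACHN values chose it. Groups of 3 are too small for a formal search for single outlying samples. The first HK2 shKDM5C replicate was set apart by description, from its distance to its replicates and its mitochondrial share, after the data were seen.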

How the results depend on the processing

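Counts of members called kept within 1.5 times the reported number in 207 recomputed values and not in 24, and 1709 recomputed log2 fold changes kept direction and side of the threshold, 39 became called, 49 lost the call, 6 of VCAM1 moved (no test) and 19 changed sign. Where they did not, the cause was not tested. With all 12 libraries of the line in the fit, the HK2 counts were 2 in shYY1 (6 reported), 4 in the double knockdown (8), 5 between double knockdown and shKDM5C (3) and 4 between double knockdown and shYY1 (7). For HK2 shKDM5C the replicate block gave 0 (2 reported), with 0 calls over all genes against 214 reported (adjusted p = 0.0667 for VCAM1 and 0.0676 for LCN2), and leaving out a library gave 0 to 6. Leaving out a library gave 0 to 6 for HK2 double knockdown against shKDM5C, 0 to 4 for the HK2 interaction (0 reported; 1 with DESeq2 and 1 with no filter), and 2 to 7 for the difference of the shKDM5C effects (2 reported; 4 with DESeq2, RLE, no filter or the minimum of 10). Under the replicate block HAVCR1 in HK2 double knockdown against shKDM5C was no longer called either (-0.71, adjusted p = 0.0711). The high ends came without the first HK2 shKDM5C replicate.

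Signs reversed as follows. LCN2 in the ACHN double knockdown against shKDM5C went to 0.0506 with total counts and from -0.14 to 0.15 leaving out a library. The TIMP1 interaction in ACHN went to 0.0868 with total counts, 0.0129 with the minimum of 10, and from -0.0737 to 0.0425 leaving out a library. In HK2 shKDM5C, CLU ranged from -0.62 to 0.0155 and TIMP1 from -0.13 to 0.15 leaving out a library, and SOX4 in the HK2 double knockdown against shKDM5C from -0.11 to 0.0798. The CLU difference of shKDM5C effects was -0.12 with the replicate block and -0.23 to 0.42 leaving out a library, and that of VCAM1 -0.48 to 1.02. The replicate block was not run for shCtrl of the 2 lines, where it leaves too little to fit. Low counts limit VCAM1 and LCN2 in ACHN, SOX9 in ACHN and PROM1 everywhere.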
